A study of Mus musculus with 10 samples.

Results

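The 10 genes described here build sphingolipids from their first precursors. They were taken by gene symbol from a table of read counts on 24059 symbols in mouse lung, and all 10 were in it, 9 of them with at least 1 count in at least 1 mouse. They are Sptlc1, Sptlc2 and Sptssa, subunits of serine palmitoyltransferase (SPT), Ormdl1, Ormdl2 and Ormdl3, which hold that enzyme back, and the later enzymes Kdsr, Cers2, Degs1 and Sgms1. The rule that picks them names symbols by function and uses no measured value.

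The RNA came from whole lungs of female C57Bl/6 mice, an inbred laboratory strain. One group of 5 mice (FO) ate a high-fat diet whose fat was menhaden fish oil with some corn oil, and the other group of 5 (CO) ate a diet with the same amount of fat in which coconut oil was mixed with olive and corn oil. Fat made up 19% of both diets by weight, and both held added cholesterol. The study's diet table lists less cholesterol in the FO diet and more of each sphingolipid class that it sums, ceramides among them. Feeding ran for 8 weeks from an age of 6 weeks, so the mice were 14 weeks old. Every mouse had first been through a test of airway reactivity, and its lungs had then been flushed with saline. No mouse was on ordinary chow, so each comparison sets one high-fat diet against another. The RNA of a whole lung mixes all of its cell types, and fewer cells of a type cannot be told apart from less RNA per cell.

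Sphingolipid synthesis starts in the endoplasmic reticulum, where SPT joins serine to a fatty acyl-CoA. Sptlc1 and Sptlc2 form the catalytic core and Sptssa is a small subunit that raises its activity, while the ORMDL proteins sit in the same membrane and lower SPT activity when ceramide is plentiful. The product is reduced by Kdsr, acylated to dihydroceramide by ceramide synthases such as Cers2, desaturated to ceramide by Degs1 and turned into sphingomyelin by Sgms1. In humans the ORMDL3 gene lies in a region linked to childhood asthma. The study asked what a fish oil diet does to airway reactivity and sphingolipids, and the comparison here asks whether RNA of the synthesis genes differed between the diets.

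The 3 ORMDL genes code for closely related proteins, so the first question is whether reads can be assigned to one of them. Their coding sequences, from the GENCODE M21 transcripts of GRCm38 (the assembly that mm10 names), are each 459 bases long without the stop codon and are identical at 294 of these positions in all 3 genes. Over the whole coding sequence Ormdl1 was 73.0% identical to Ormdl2 and 73.0% to Ormdl3, and Ormdl2 was 75.6% identical to Ormdl3. The longest run of bases shared without a mismatch was 19 bases, between Ormdl2 and Ormdl3, and it was 11 bases for both pairs with Ormdl1. No stretch of 50 bases was therefore common to any pair of the 3 genes, and a read of that length could not fit more than 1 of them perfectly.

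Ormdl2 lies where 2 genes meet. It is on the minus strand of chromosome 10 (GRCm38, 128817902 to 128821645), and 66.7% of its exonic bases, 1114 in all, are also exonic in Dnajc14, which is read from the other strand. Of the 50-base windows of its main transcript, 69.9% occur in a Dnajc14 transcript on one strand or the other. The strand setting of the counting is not given in the sources used here, and counting without strand cannot tell reads of these shared bases apart. Dnajc14, a chaperone gene chosen here after its values were seen, had 12 counts over the 10 mice, between 0 and 3 in each. Ormdl1 (chromosome 1, 53297095 to 53310309, plus strand) shared 8.72% of its exonic bases with Gm28778, a gene model on the same strand. The count table does not list Gm28778, in which 19.5% of the Ormdl1 windows also occurred. Ormdl3 (chromosome 11, 98581256 to 98587368, minus strand) overlapped no other exon, and 4.50% of its windows also occurred in 1 other gene, Gm12538.

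**Figure D1:**
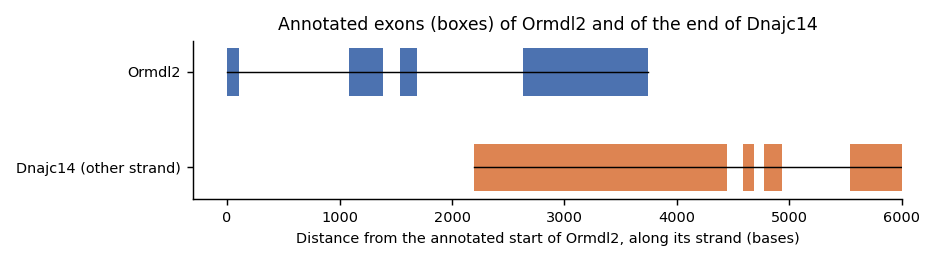
Exons (boxes) of Ormdl2 and of the end of Dnajc14, which lies on the opposite strand, against the distance in bases from the annotated start of Ormdl2. The last exon of Ormdl2 lies wholly inside an exon of Dnajc14, which accounts for the 66.7% of exonic bases shared.

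The other members had little or no overlap with other genes. Sptlc1 lies on chromosome 13 (53332748 to 53377397, minus strand), Sptlc2 on chromosome 12 (87305058 to 87388355, minus), Kdsr on chromosome 1 (106720459 to 106759727, minus) and Degs1 on chromosome 1 (182275772 to 182282804, minus), and none of these 4 shared an exonic base with another gene. Sptssa (chromosome 12, 54645392 to 54656573, minus) shared 5.27% of its exonic bases with a microRNA gene that had no counts. Cers2 (chromosome 3, 95314791 to 95323599, plus) shared 2.04% with Setdb1 and 3.92% with an antisense RNA, and Sgms1 (chromosome 19, 32122727 to 32389714, minus) shared 0.0948%.

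The depth was low. Reads counted on genes ranged from 229766 to 1124963 per mouse, and Rn45s, the ribosomal RNA precursor, took between 21.8% (CO mouse 4) and 87.0% (FO mouse 3) of them. What was left ranged from 45177 counts in CO mouse 1 to 473254 in FO mouse 2. The median of these counts was 235781 in FO mice and 136211 in CO mice. Malat1, a long nuclear RNA, ranged from 0.135% to 1.05% of these in 8 mice and reached 6.15% in CO mouse 5 and 8.53% in FO mouse 2, so results were also computed without these 2 libraries. All 16 markers of lung cells had counts, 11 of them in every mouse, with a summed level of 2705 to 4403 CPM (counts per 1000000 counts) in the FO group and 2495 to 4087 in the CO group. Heart muscle markers (8 of 8 with counts) summed to 54.7 to 246 CPM in FO mice and 20.7 to 171 CPM in CO mice and liver markers (6 of 6) to 0 to 15.6 and 0 to 24.2 CPM. Of 7 red blood cell markers all 6 globin genes were at 0, and the seventh, Alas2, ranged from 35.2 to 65.9 CPM in FO mice and from 2.10 to 75.7 CPM in CO mice. Of these markers 2 of lung, 2 of heart and Alas2 were higher in FO at an unadjusted edgeR p under 0.05. At that threshold 0 of the markers were lower, while over all genes with any count 2.58% were higher and 1.57% lower. The part of these markers in the values below was not tested.

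All 10 members together received 677 counts. Per mouse they received 19 to 190 counts, which was between 0.0319% and 0.0430% of the counts outside Rn45s in 9 mice and 0.0239% in CO mouse 4. Of the 100 values (10 genes in 10 mice) 21 were 0, 28 were between 1 and 3 counts and 51 were above 3 counts, the number of counts taken here as the floor of a library. Sptssa was over that floor in all 10 mice, Degs1 and Sgms1 in 9, Sptlc1 in 7, Sptlc2 and Cers2 in 5, Kdsr in 4, Ormdl3 in 2, and Ormdl1 and Ormdl2 in none. A floor of 3 counts stood for different levels in different mice, from 2.33 CPM in FO mouse 2 to 15.6 CPM in CO mouse 1, with a median of 5.27 CPM. All CPM given, those of the markers above included, are scaled by edgeR's TMM factors, which correct for the uneven share of Rn45s and other abundant RNAs.

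**Figure D2:**
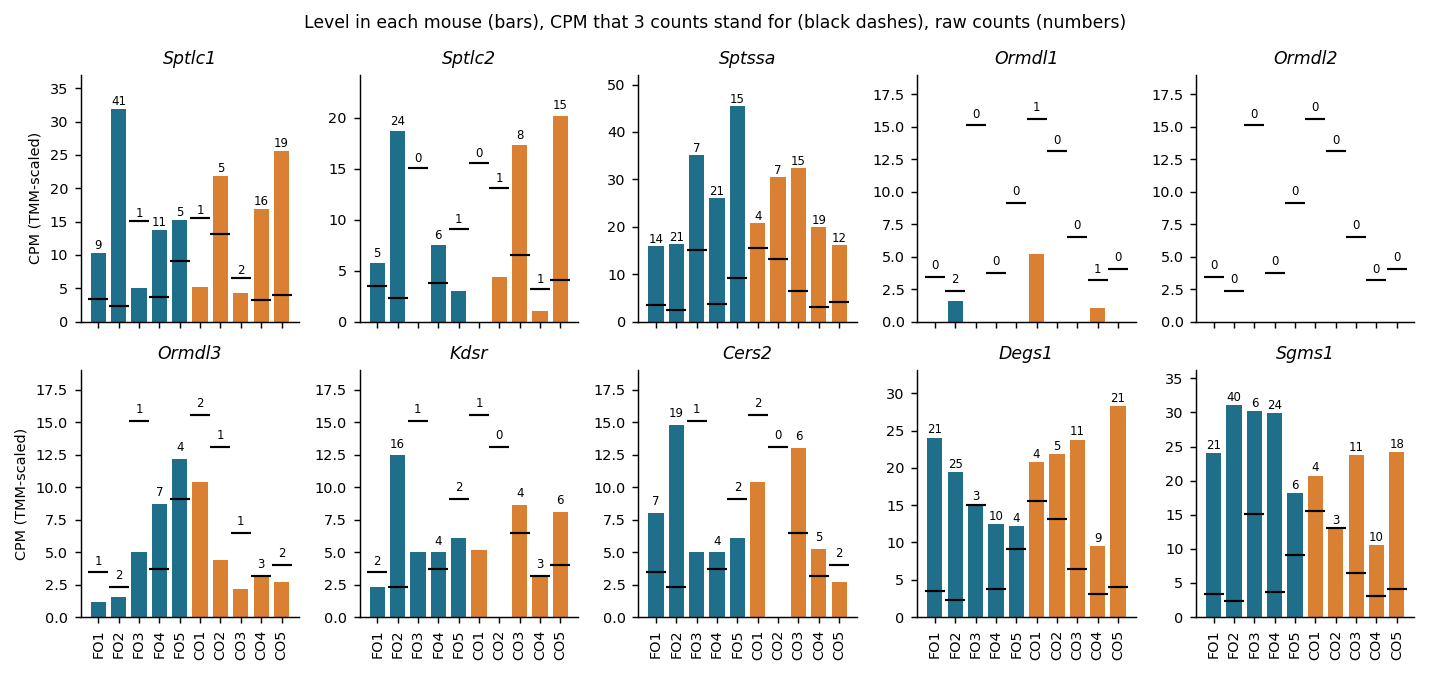
Level of each member in each mouse in TMM-scaled CPM (bars, FO blue and CO orange), with the level that 3 counts stand for in that mouse (black dashes) and the raw count (numbers). Sptssa stands above the dash in all 10 mice, Ormdl3 in FO mice 4 and 5 only, and Ormdl1 and Ormdl2 in none.

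No member passed the threshold in the comparison of the diets. Of the 8 members with a fold change, 0 had an unadjusted p under 0.05 in edgeR's quasi-likelihood test (adjusted p from 0.905 to 0.995), where 4.15% of the 14161 genes with any count did (2.58% higher and 1.57% lower in FO). DESeq2, which called 0.975% of all genes at an unadjusted p under 0.05, and limma-voom with sample weights, which called 3.30%, also called 0 members. Over all genes the same edgeR test had 587 genes at an unadjusted p under 0.05 and 1 (0.00706%) at an adjusted p under 0.05. The 2 diet groups overlapped in CPM for every member, while over all genes with any count 0.424% had groups that did not overlap. Of the 9 members with any count 6 had a fitted log2 fold change above 0 and 3 below, with a median of 0.13, against a median of 0.05 and 54.0% above 0 over all genes tested. Without Ormdl1, for which no fold change is given, the median of the other 8 was 0.21.

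The width of the intervals varied between the members. The 95% interval of the fold change reached 1.72-fold to either side of the estimate for Sptssa, 1.76-fold for Sgms1, 1.81-fold for Degs1 and 1.87-fold for Sptlc1, the genes with over 100 counts. It reached 2.20-fold for Sptlc2, 2.42-fold for Cers2 and 2.61-fold for Kdsr, and 3.06-fold for Ormdl3, which had 24 counts. These widths hold for this fit and take in the spread between mice as well as the counting error. With limma-voom the interval of Ormdl3 reached 1.30 to either side on the log2 scale, where the edgeR interval reached 1.61. With 5 mice against 5 the smallest p of the two-sided exact permutation test is 0.0079, which is under the threshold.

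**Figure D3:**
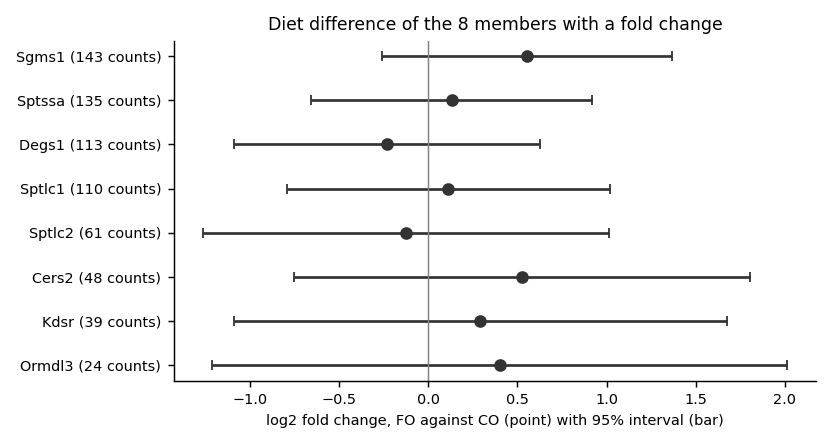
Fold change of FO against CO on the log2 scale (points) with its 95% interval (bars) for the 8 members with a fold change, in order of total counts. Every interval spans 0, and the intervals widen from Sptssa and Sgms1 at the top to Ormdl3 at the bottom.

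Among the SPT subunits, the catalytic core gene Sptlc1 had 110 counts in all. Its level was 10.3, 31.9, 5.03, 13.7 and 15.2 CPM in FO mice 1 to 5 and 5.19, 21.8, 4.33, 16.8 and 25.6 CPM in CO mice 1 to 5. The highest mouse of each diet was a library with much Malat1, and the lowest FO mouse and the 2 lowest CO mice rested on 1 or 2 counts each. The means were 15.2 ± 10.1 CPM in FO and 14.8 ± 9.64 CPM in CO (SD, n = 5 each). The log2 fold change was 0.11 (SE 0.46, 95% interval -0.79 to 1.02, edgeR p = 0.807), and the exact permutation test gave p = 0.976.

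Sptlc2, the partner of Sptlc1 in the core, had 61 counts and was at 0 in FO mouse 3 and CO mouse 1. The FO mice had 5.73, 18.7, 0, 7.46 and 3.04 CPM, and the CO mice had 0, 4.36, 17.3, 1.05 and 20.2 CPM. Both diets thus had a mouse at 0 and a mouse above 18 CPM. The group means were 6.98 ± 7.12 CPM in FO and 8.59 ± 9.48 CPM in CO, with a log2 fold change of -0.12 (SE 0.58, interval -1.26 to 1.01, edgeR p = 0.826, exact permutation p = 0.865).

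Sptssa, the small activating subunit, was the best measured of the 3, with 135 counts. It stood at 16.0, 16.3, 35.2, 26.1 and 45.5 CPM in FO mice 1 to 5, and at 20.7, 30.5, 32.5, 19.99 and 16.2 CPM in CO mice 1 to 5. The FO mice held both the lowest and the highest value. Means of 27.8 ± 12.7 CPM in FO and 24.0 ± 7.11 CPM in CO gave a log2 fold change of 0.13 (SE 0.40, interval -0.66 to 0.92, edgeR p = 0.749, exact permutation p = 0.587).

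The 3 subunits did not keep the same proportions in every library. Sptssa made up 24.4% of the SPT subunit counts in FO mouse 2 (21 of 86, exact Clopper-Pearson 95% interval 15.8% to 34.9%) and 26.1% in CO mouse 5 (12 of 46, 14.3% to 41.1%). In the other 8 mice its share was between 50% and 87.5%, with a median of 57.6%. Summed counts gave 25.0% for the first 2 mice (33 of 132, 17.9% to 33.3%) and 58.6% for the other 8 (102 of 174, 50.9% to 66.0%). These intervals cover counting error only. Each diet had 1 of the 2 low libraries, and the median share was 55.3% in FO and 53.8% in CO. FO mouse 2 and CO mouse 5 held the 2 highest levels of Sptlc1 and of Sptlc2 and were eighth and ninth of 10 for Sptssa. They were also the 2 libraries with the most Malat1. Each had the highest summed heart muscle markers of its diet, at 246 CPM in FO mouse 2 and 171 CPM in CO mouse 5. The part of Malat1 and of these markers in the shares and levels was not tested. A share within a library does not depend on how libraries are scaled.

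**Figure D4:**
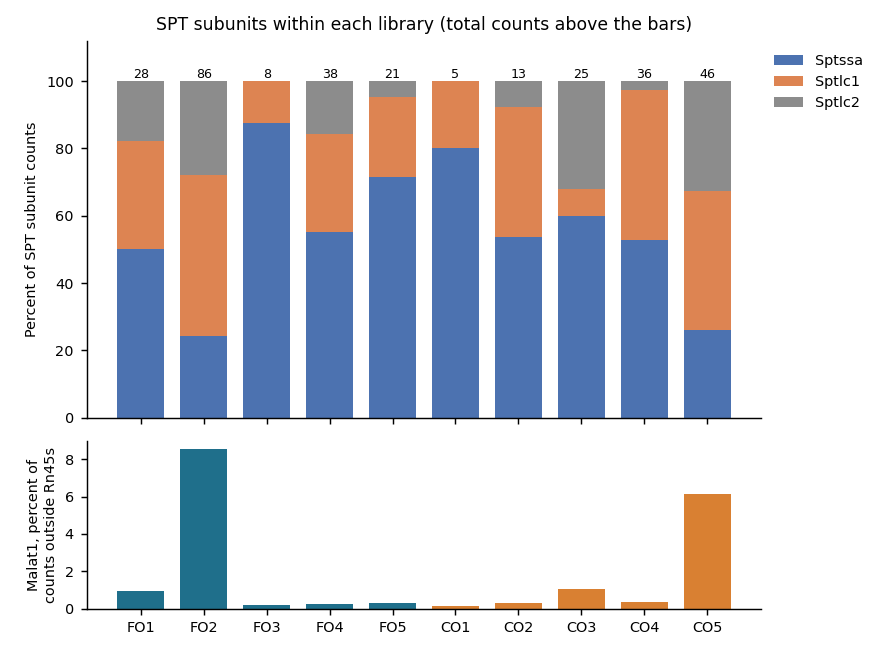
Share of Sptssa, Sptlc1 and Sptlc2 among the SPT subunit counts of each mouse in percent (upper panel, total counts above the bars) and Malat1 in percent of the counts outside Rn45s (lower panel, FO blue and CO orange). FO mouse 2 and CO mouse 5 have the lowest Sptssa shares, 24.4% and 26.1%, and the highest Malat1 shares, 8.53% and 6.15%.

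Of the ORMDL genes, those that restrain SPT, only Ormdl3 had counts in every mouse. It had 1, 2, 1, 7 and 4 counts in FO mice 1 to 5 and 2, 1, 1, 3 and 2 counts in CO mice 1 to 5. Only FO mice 4 and 5 were above the floor of 3 counts, at 8.71 and 12.1 CPM. The other FO mice had 1.15, 1.56 and 5.03 CPM and the CO mice 10.4, 4.36, 2.16, 3.16 and 2.69 CPM, and the 10.4 CPM of CO mouse 1 stood for 2 counts. Means were 5.72 ± 4.72 CPM in FO and 4.55 ± 3.36 CPM in CO. The log2 fold change of Ormdl3 was 0.40 (SE 0.82, interval -1.21 to 2.01, edgeR p = 0.634, exact permutation p = 0.690), so that the data allow anything from a 0.432-fold to a 4.04-fold level in FO.

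Ormdl1 had 4 counts in all, 2 in FO mouse 2 and 1 each in CO mice 1 and 4, and was at 0 in the other 7 mice. Ormdl2 had 0 counts in all 10 mice. Every mouse was at or under the floor for both genes, and no fold change is given for either. Within the family, Ormdl3 made up 24 of 28 counts (85.7%, exact interval 67.3% to 96.0%), and the 0 counts of Ormdl2 allow a share of up to 12.3%. The Ormdl3 share was 88.2% in FO (15 of 17) and 81.8% in CO (9 of 11), and the intervals of 63.6% to 98.5% and 48.2% to 97.7% overlapped widely. For Ormdl2 the exons shared with Dnajc14 stand beside this value, since how reads on them were counted is not given in the sources used here, and their part was not tested.

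Of the next enzymes, Kdsr, which reduces the SPT product, had 39 counts. Its level was 2.29, 12.4, 5.03, 4.98 and 6.07 CPM in FO mice 1 to 5 and 5.19, 0, 8.65, 3.16 and 8.08 CPM in CO mice 1 to 5. Of these only FO mice 2 and 4 and CO mice 3 and 5 were over 3 counts. The log2 fold change was 0.29 (SE 0.71, interval -1.09 to 1.67, edgeR p = 0.675, exact permutation p = 0.667), with means of 6.16 ± 3.78 CPM in FO and 5.02 ± 3.58 CPM in CO.

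Cers2, the ceramide synthase that attaches very long acyl chains, had 48 counts, 33 in FO and 15 in CO. The FO mice had 8.02, 14.8, 5.03, 4.98 and 6.07 CPM and the CO mice 10.4, 0, 13.0, 5.26 and 2.69 CPM. The CO values lay on both sides of all FO values except the 14.8 CPM of FO mouse 2. Means were 7.77 ± 4.10 CPM in FO and 6.26 ± 5.36 CPM in CO, and the log2 fold change was 0.53 (SE 0.65, interval -0.75 to 1.80, edgeR p = 0.416, exact permutation p = 0.635). Without FO mouse 2 and CO mouse 5 it was -0.17.

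Degs1, the desaturase that makes ceramide, was over the floor in all mice but FO mouse 3, with 113 counts. It had 24.0, 19.4, 15.1, 12.4 and 12.1 CPM in FO mice 1 to 5 and 20.7, 21.8, 23.8, 9.47 and 28.3 CPM in CO mice 1 to 5. Of the CO mice 4 were above 20 CPM, and 1 of the FO mice was. The means of 16.6 ± 5.07 CPM in FO and 20.8 ± 6.97 CPM in CO gave a log2 fold change of -0.23 (SE 0.44, interval -1.09 to 0.63, edgeR p = 0.597), and the exact permutation p was 0.325.

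Sgms1, which turns ceramide into sphingomyelin, had 143 counts and the lowest p of the members. Its level was 24.0, 31.1, 30.2, 29.9 and 18.2 CPM in FO mice 1 to 5 and 20.7, 13.1, 23.8, 10.5 and 24.2 CPM in CO mice 1 to 5. Of the FO mice 4 were above the median CO mouse, and 3 were above all CO mice, but FO mouse 5 was below 3 of them. Means were 26.7 ± 5.49 CPM in FO and 18.5 ± 6.31 CPM in CO. The log2 fold change was 0.55 (SE 0.41, interval -0.26 to 1.37), with an edgeR p of 0.180 and an adjusted p of 0.905, and the exact permutation test gave p = 0.063. This did not pass the threshold, and the interval reached from a 0.836-fold to a 2.58-fold level in FO.

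Levels can be compared between members only per length. Divided by exon length, since long transcripts yield more reads, Sptssa was highest at 17.1 ± 6.52 CPM per kb (SD over 10 mice). Degs1 followed with 7.23 ± 2.38 and Sptlc1 with 4.21 ± 2.62 CPM per kb. Ormdl3 (2.35 ± 1.79), Sgms1 (2.14 ± 0.669) and Cers2 (1.91 ± 1.24) came next and did not differ from each other beyond their spread, as Ormdl3 was above Sgms1 in 5 of 10 mice and Sgms1 above Cers2 in 6. Sptlc2 (0.959 ± 0.979) and Kdsr (0.686 ± 0.432) were lower and likewise close, with Sptlc2 the higher in 6 of 10 mice. Ormdl1 was at 0.165 ± 0.349 CPM per kb and Ormdl2 at 0.

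Some neighbours in this order did stand apart mouse by mouse. Sptssa was above Degs1 in 9 mice and above each of the other members in all 10, and Sptlc1 was above Sptlc2, its partner in the catalytic core, in 9. Degs1 was above Sptlc1 in 8 mice and Cers2 above Sptlc2 in 8, while Sptlc1 was above Ormdl3 in only 6. Ormdl3 was above Ormdl1 in all 10 mice, but on few counts. Both had 2 counts in FO mouse 2, where only exon length set them apart, and Ormdl3 was at or under 3 counts in 8 mice. All of these orders are counts of mice in a description of levels, with no test. Exon lengths are those of all annotated transcripts together, from 1.518 kb for Sptssa to 10.546 kb for Sgms1, so a gene with long exons that the lung does not use appears lower than it is.

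**Figure D5:**
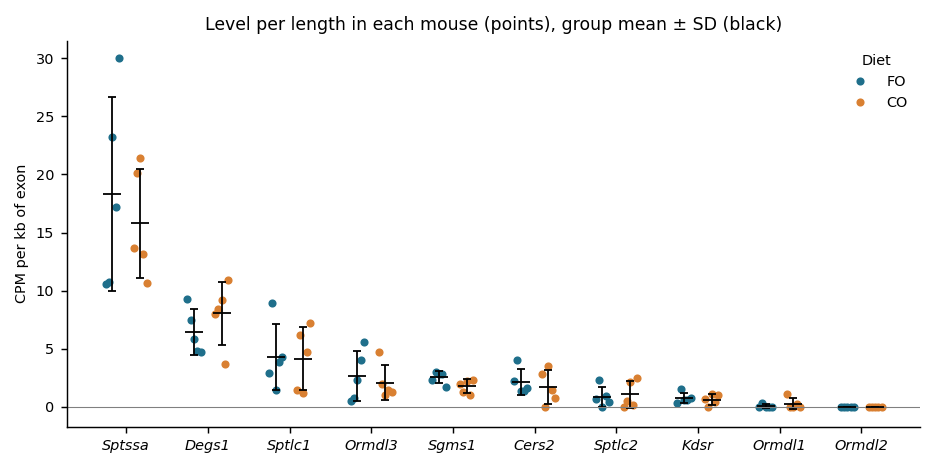
Level of each member in CPM per kb of exon in each mouse (points, FO blue and CO orange) with the mean and SD of each diet (black), in order of the mean over all mice. Sptssa has the highest mean, with points at 10.6 to 30.0 CPM per kb, and is above Degs1 in 9 of 10 mice. The points of both diets overlap for every gene.

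Other genes of the pathway were also thinly counted. A list of 14 further synthesis genes, among them other ceramide synthases and enzymes for glucosylceramide, had 7 genes at 0 in every mouse. Sptlc3 and Sptssb, the alternative SPT subunits, were among the latter (chosen here after their values were seen). Of the 7 genes tested, 0 were called by edgeR at an unadjusted p under 0.05, 2 were higher and 5 lower in FO, and their median log2 fold change was -0.29, against 0.05 over all genes tested. Its most counted gene, Col4a3bp, which carries ceramide from the endoplasmic reticulum to the Golgi, had 260 counts and 37.9 ± 9.28 CPM in FO against 43.6 ± 5.79 CPM in CO (log2 fold change -0.17, SE 0.35, edgeR p = 0.610, exact permutation p = 0.278). Next came the ceramide synthase Cers4 with 117 counts, at 15.8 ± 6.54 CPM in FO and 19.2 ± 15.9 CPM in CO (log2 fold change -0.30, SE 0.44, edgeR p = 0.496, exact permutation p = 0.738), and this difference turned to 0.50 without CO mouse 5.

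Of 33 genes for sphingolipid breakdown and for sphingosine 1-phosphate, a signalling lipid made from sphingosine, 31 had counts. Of these, 15 were higher and 16 lower in FO, with a median log2 fold change of -0.10, and 1 was called at an unadjusted p under 0.05. Acer1 and Arsa were at 0 (also chosen after their values were seen). The most counted was S1pr1, a sphingosine 1-phosphate receptor of endothelium and lymphocytes, with 392 counts. It stood at 62.5 ± 26.0 CPM in FO and 46.8 ± 23.3 CPM in CO (log2 fold change 0.39, SE 0.33, edgeR p = 0.226, exact permutation p = 0.349). Ppap2b, a lipid phosphate phosphatase that can break down sphingosine 1-phosphate, had 360 counts and 59.1 ± 15.5 against 52.6 ± 19.4 CPM (log2 fold change 0.23, SE 0.33, edgeR p = 0.485, exact permutation p = 0.571).

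The gene that was called was Galc, the lysosomal enzyme that removes galactose from galactosylceramide. It had 10, 6, 0, 1 and 3 counts in FO mice 1 to 5 and 1, 0, 0, 2 and 0 counts in CO mice 1 to 5, so that 2 FO mice were above the floor of 3 counts and no CO mouse was. Means were 5.29 ± 4.93 CPM in FO and 1.46 ± 2.27 CPM in CO. The log2 fold change was 2.29 (SE 1.12, edgeR p = 0.0244, adjusted p = 0.905), and the exact permutation test gave p = 0.190. Galc was no longer called by DESeq2 (unadjusted p = 0.0743). In edgeR fits across all genes its unadjusted p was 0.143 without FO mouse 1, 0.0553 without CO mouse 3, 0.0853 without CO mouse 5 and 0.0743 without both FO mouse 2 and CO mouse 5. By the exact permutation test 1 of the 38 genes tested of the 2 lists was under 0.05. The share of all genes under 0.05 by that test was not computed. The gene was Aldh3a2, a fatty aldehyde dehydrogenase that acts after sphingosine 1-phosphate is cleaved (named after its values were seen). It had 36 counts, with 3.88 ± 1.41 CPM in FO and 9.93 ± 4.15 CPM in CO (log2 fold change -1.30, SE 0.71, exact permutation p = 0.0238 without adjustment), and edgeR gave p = 0.0664 and an adjusted p of 0.905 for the same mice. The 1 edgeR call, Galc, among 31 genes stands beside the 4.15% of all genes called.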

How the data were processed

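Single-end RNA-seq of lung was available for 5 FO and 5 CO mice, 1 sample each, and diets were taken from the sample labels. The libraries were TruSeq RNA v2 or riboZero, and which mouse had which is not given in the sources used here. The authors deposited raw counts per gene symbol, made with STAR 2.4.0f1 on mm10, SAMtools 0.1.19 and htseq-count. The annotation, overlap mode and strand setting of the counting are not given in the sources used here. No 2 mice had identical counts.

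Counts of the 14161 genes with any count (9898 had none) were fitted with edgeR 4.0.16 in R 4.3.3 (TMM factors, quasi-likelihood test without robust estimation) and called at an unadjusted p under 0.05, the threshold of the study's methods. Adjusted p-values are Benjamini-Hochberg over all genes. Intervals are Wald intervals of the unshrunk coefficient. edgeR's default minimum on counts, which no member passed, was an alternative. Single genes were also tested with two-sided exact permutation tests of mean CPM (scipy 1.17.1) over the mice. P-values set the difference between the diets against the spread between mice, which includes counting error. In the edgeR, DESeq2 and limma fits that spread is estimated partly across genes. Intervals of shares cover counting error only. Other alternatives were DESeq2 1.42.0, RLE factors, library size alone, robust estimation and limma-voom (limma 3.58.1). The limma-voom fit gave each library a sample weight. Further alternatives were the replicate number as a block, Rn45s left out, and mice left out. The code of the edgeR, DESeq2 and limma fits was first run on simulated counts with known changes, and no value from them is given here.

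Positions, exon lengths and sequence comparisons are from GENCODE M21 on GRCm38. The members and lists were chosen with earlier results of these data known. The genes named are the 10 members and, of 2 other sphingolipid lists, those called and the 2 most counted per list. Dnajc14, Sptlc3, Sptssb, Acer1, Arsa and Aldh3a2, and the genes overlapping members, fall outside that rule. Lipid, protein and airway measurements were not analysed here. A stretch of ORMDL coding sequence is not reported here.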

Additional observations from a re-analysis of the deposited data

Results flagged for a closer look

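Ormdl3 in CO mouse 1 stood at 10.4 CPM, while the other 4 CO mice had 2.16 to 4.36 CPM. The gap to the nearest of them was 0.732 of the group's range, above Dixon's 95% critical value of 0.71 for 5 samples. The value rests on 2 counts in the library with the fewest counts outside Rn45s. Of 18 groups examined (9 measures in 2 diets) 1 was set apart in this way, and chance gives 0.9. Ormdl1, at 0 in 7 of 10 mice, is left out of that number. Its highest mouse in either diet, at 1.56 CPM in FO and 5.19 CPM in CO, would also pass the critical value.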

How the results depend on the processing

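No member was called at an unadjusted p under 0.05 in any of the 18 alternatives that gave member values (144 fold changes, lowest p 0.107 for edgeR, DESeq2 and limma fits together), and 23 of the 144 changed sign. The default filter on low counts left no member to test. Of 96 exact permutation tests of members under alternatives, 1 fell under 0.05, for Sgms1 without FO mouse 5 (p = 0.0317). Degs1 was below 0 and Sgms1 above 0 in all 18, but Degs1 came to -0.012 without FO mouse 2 and CO mouse 5, and Sgms1 to 0.13 with library size alone. With library size alone, which moved the median of all genes to -0.43 on the log2 scale and left 85 of 580 calls higher in FO against 365 of 587 with TMM, the log2 fold change was -0.40 for Sptlc1, -0.25 for Sptssa, -0.10 for Ormdl3, -0.11 for Kdsr, -0.15 for S1pr1 and -0.23 for Ppap2b. With limma-voom (all-gene median -0.11) it was -0.059 for Sptssa and -0.061 for Ormdl3. Without FO mouse 2 and CO mouse 5 it was -0.073 for Sptlc1, -0.035 for Kdsr, -0.17 for Cers2 and 0.21 for Cers4. Leaving out each mouse in turn gave -0.39 to 0.45 for Sptlc1, -0.85 to 0.59 for Sptlc2, -0.082 to 0.34 for Sptssa, -0.0042 to 0.82 for Ormdl3, -0.30 to 0.58 for Kdsr, 0.11 to 1.04 for Cers2, -0.47 to -0.014 for Degs1, 0.36 to 0.73 for Sgms1 and -0.58 to 0.50 for Cers4.

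Genes called over all genes were 587 in the main analysis, 138 with DESeq2 (71 higher), 71 of 2438 with the default filter (41 higher), 183 with the replicate block and 535 to 782 without 1 mouse. The 38 genes tested of the 2 other lists had 1 call, against 0 with DESeq2, 0 with the default filter (5 genes tested), 0 with the replicate block, 0 without FO mouse 2 and CO mouse 5, 3 with limma-voom and 1 to 2 without 1 mouse. Galc was under 0.05 in 11 of its 18 alternatives (p from 0.0110 to 0.156, adjusted p at least 0.790). Aldh3a2, which was not called, was under 0.05 in 3 of its 18 alternatives (p from 0.0331 to 0.135). The cause of these changes was not tested. Mice with the same replicate number were different animals, and the deviations of same-numbered mice correlated at -0.42 to 0.03 (0 of 5 pairs over 0.1, and 0 FO mice correlated best with their own number). With the replicate block Sptlc1 was at -0.0083 and Sptlc2 at 0.12. Low counts limit precision, with 3 counts standing for up to 15.6 CPM, and so does the spread between libraries.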
